A study of Mus musculus with 6 samples.

Results

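The LC3 and GABARAP genes (Map1lc3a, Map1lc3b, Gabarap, Gabarapl1 and Gabarapl2) and 5 genes of autophagy receptors (Sqstm1, Nbr1, Optn, Calcoco1 and Tax1bp1) were followed in BM HSCs of mice given IGF1 or vehicle. The 10 genes were chosen by symbol, whatever their values, from 21878 gene symbols measured in each library, and all 10 passed the filter on low values described below. The HSCs were gated as CD34-Flk2-Lineage-Sca1+c-Kit+ cells, and all mice were WT, those given vehicle serving as controls. Each group had 3 RNA-seq libraries, and neither the labels nor the methods give the age of these mice, the number of animals behind a library or whether animals were pooled. The description of the extraction in the labels names irradiation where the treatment label names IGF-1, and the libraries were taken as IGF1 and control.

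Autophagy encloses cytoplasm in a double membrane, the autophagosome, and delivers it to the lysosome, and HSCs rely on it to clear mitochondria and to last through stress. LC3 and GABARAP proteins, the mammalian ATG8 family, resemble ubiquitin and are joined to a lipid of that membrane after an ATG4 protease trims their tail to expose a glycine. Receptors hold cargo with one part and ATG8 proteins with another, a short stretch called the LC3-interacting region, and several of them bind ubiquitin. mTORC1, which IGF1 signaling activates, restrains the start of autophagy, so how ATG8 and receptor transcripts stood after IGF1 is the question of this comparison.

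The end of each ATG8 coding sequence shows what the paralogs share and where they part, since this is the stretch that ATG4 trims. Below, the last 63 bases of each coding sequence are given from the annotated GRCm38 transcript, with the codon of the last glycine in capitals.
Map1lc3a: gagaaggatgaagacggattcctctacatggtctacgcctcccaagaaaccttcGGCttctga
Map1lc3b: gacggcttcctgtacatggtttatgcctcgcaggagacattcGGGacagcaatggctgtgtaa
Gabarap: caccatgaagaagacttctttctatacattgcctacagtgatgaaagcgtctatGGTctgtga
Gabarapl1: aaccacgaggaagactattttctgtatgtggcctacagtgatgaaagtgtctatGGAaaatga
Gabarapl2: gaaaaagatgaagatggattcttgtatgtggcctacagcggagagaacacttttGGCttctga

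The glycine is codon 120 in both LC3 genes and codon 116 in the 3 GABARAP genes. In Map1lc3b it is followed by 5 codons before the stop and in each of the other ATG8 genes by 1. Between Map1lc3a and Map1lc3b 76.5% of aligned coding bases were identical and between Gabarap and Gabarapl1 74.9%, while the other 8 pairs lay between 53.4% and 63.8%. The longest stretch shared by any pair of ATG8 coding sequences was 17 bases, so that reads can be told apart between paralogs along most of their length. Map1lc3b and Gabarapl2 each share at least 1 stretch of 100 bases with 3 other annotated genes, none of which had a row, and how the reads of such stretches were assigned is not given in the sources used here.

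In GRCm38 the ATG8 genes lie apart from one another. On the plus strand are Map1lc3a (chr2:155276297-155278073), Map1lc3b (chr8:121590361-121598760), Gabarap (chr11:69991143-69994951), Gabarapl1 (chr6:129533160-129542346) and Gabarapl2 (chr8:111940703-111953612), each with 4 exons in the transcript used. Of the receptors, Nbr1 (chr11:101552149-101581951) and Tax1bp1 (chr6:52713729-52766780) lie on the plus strand and Sqstm1 (chr11:50199366-50210827), Optn (chr2:5020642-5064051) and Calcoco1 (chr15:102706777-102722178) on the minus strand. Genes on the opposite strand overlap Map1lc3b (Zcchc14), Gabarapl1 (1700101I11Rik), Sqstm1 (Mrnip), Optn (4930551O13Rik) and Tax1bp1 (Gm43966 and Gm43967). The library kit keeps strand, but whether the counting used it is not given in the sources used here, and without it the reads of such genes cannot be told apart. On the same strand, Gm20388 overlaps Map1lc3b and Gm44243 overlaps Gabarapl1, where strand would not help.

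For the receptors, the LC3-interacting region is the part that ties them to the ATG8 genes above. It is shown for the 3 receptors in which this region is best known, as 45 bases of the GRCm38 coding sequence with its 4 core codons in capitals.
Sqstm1: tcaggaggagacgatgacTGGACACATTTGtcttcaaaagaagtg
Nbr1: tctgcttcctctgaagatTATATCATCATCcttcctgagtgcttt
Optn: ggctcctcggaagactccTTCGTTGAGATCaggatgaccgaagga

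These are codons 340 to 343 of Sqstm1, 750 to 753 of Nbr1 and 188 to 191 of Optn. The 3 residues before the core include 3 acidic ones in Sqstm1 and 2 each in Nbr1 and Optn.

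The deposited values were read as FPKM, that is, fragments on a transcript relative to its length and to the size of the library. Those of any one gene rise in whole steps, as scaled counts do, which does not show that they are relative to length. Read back as reads, they came to between 11206800 and 15973834 per library. Control replicate 2 stood apart. Over genes with at least 20 reads in a pair of libraries, chi-squared per gene, which is 1 where only counting noise separates a pair, was 1.52 between control replicates 1 and 3 and 1.69 to 1.89 among the IGF1 libraries. It was 229 and 231 between control replicate 2 and the other controls, and 24.6 to 28.0 between control replicate 2 and the IGF1 libraries. On log2(FPKM + 1), control replicate 2 was nearer the IGF1 mean than the mean of the other controls in 77.3% of the genes tested and in 8 of the 10 genes followed here, so values without it are given beside the main results. Since it was singled out by these same values, leaving it out narrows the spread among controls and tends to widen differences by that choice alone. Calls and p-values without it therefore give no separate support for a difference.

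The labelled cell type was checked against marker genes. Although the gate excludes CD34 and Flk2, transcripts of Cd34 (230 to 640 FPKM) and of Flt3, which encodes Flk2 (117 to 188 FPKM), were present in all 6 libraries. Kit was at 105, 31.4 and 104 FPKM in control replicates 1, 2 and 3 and at 24.2 to 24.6 FPKM in the IGF1 libraries, and Ly6a, which encodes Sca1, at 219, 615 and 231 and at 374 to 387 FPKM. The HSC genes Procr and Hlf were at 11.5 to 18.7 and 8.88 to 11.8 FPKM over the libraries. Mecom was low, at 0.67 FPKM in control replicate 2, up to 4.1 in the other controls and 1.12 to 1.16 in the IGF1 libraries. The summed FPKM of 10 HSC genes was 80.4 in control replicate 2, up to 176 in the other controls and 66.1 to 69.8 in the IGF1 libraries. None of the 9 tested HSC genes or the 4 genes of the gate was called by limma, while 4 and 3 had an unadjusted p under 0.05, and 4 and 2 were called lower without control replicate 2. Of all genes tested, at least 20.4% had an unadjusted p under 0.05, the share with an adjusted p under 0.05. Without control replicate 2, 12.3% of all genes were called higher and 20.6% lower. Of the lists of other cell types, granulocyte and monocyte genes were led by Mpo, at 1613 to 1705 FPKM over the libraries, far above the HSC genes. This list had 0 of 10 tested genes called higher and 4 lower (Ngp, Camp, S100a8 and S100a9). Their summed FPKM, in contrast, was 3246 to 4346 in the controls and 4491 to 4513 in the IGF1 libraries, and Elane and Prtn3 stood at log2 fold changes of 2.03 and 1.14 and were called higher, at 2.90 and 1.62, without control replicate 2, where the same 4 genes were called lower. The B cell (led by Vpreb1), T and NK cell (Nkg7), erythroid (Hbb-bt), megakaryocyte and platelet (Pf4) and stromal and endothelial (Pecam1) lists had 0 called of 6, 3, 7, 4 and 1 tested. At an unadjusted p under 0.05 there were 3, 0, 0, 2 and 0 in these lists, and without control replicate 2 there were 4, 1, 0, 2 and 0 called higher and 0 called lower. The B cell sum was 423 FPKM in control replicate 2, as low as 111 in the other controls and 390 to 406 in the IGF1 libraries, and the T and NK cell sum was 780, as low as 360, and 770 to 790 FPKM. In bulk RNA, fewer cells of a type and less RNA per cell cannot be told apart, and the part of these shifts in the results below was not tested.

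The 10449 genes that reached 1 FPKM in 3 or more libraries were tested on log2(FPKM + 1) with limma. A gene counted as called where its fold change was over 2 and its adjusted p, over all genes tested, was under 0.05. Of the 10 genes, 1 was called, Map1lc3a, which was higher with IGF1. Of all genes tested, 6.61% were called, 1.98% as higher and 4.63% as lower. Sqstm1 passed the adjusted p and not the fold. Thus 2 of the 10 genes had an adjusted p under 0.05, as did 20.4% of all genes tested. In 7 of the 10 genes the control and IGF1 libraries did not overlap, with Map1lc3a, Gabarap and Gabarapl1 higher and Map1lc3b, Sqstm1, Nbr1 and Tax1bp1 lower. Of all genes tested 59.4% likewise did not overlap, 21.9% with IGF1 higher and 37.4% with IGF1 lower. For a single gene, 3 libraries against 3 allow an exact permutation test, 2-sided, no p smaller than 0.1, which is what it gave for these 7 genes. The exact permutation test gave p = 0.5 for Gabarapl2 and Optn and p = 0.3 for Calcoco1. The labels do not say that libraries came from separate mice, so p-values measure the spread between these libraries, which may be technical.

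**Figure D1:**
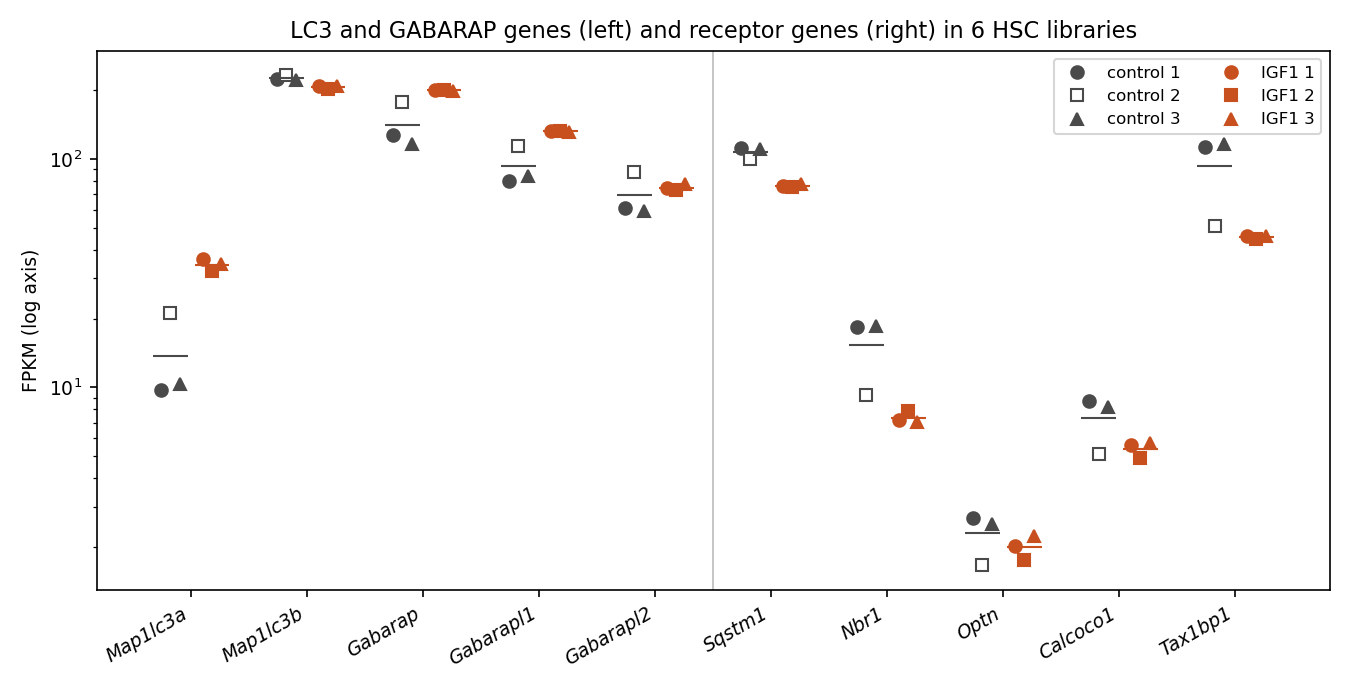
FPKM (log axis) of the 10 genes in 6 libraries, with controls in grey (control replicate 2 as an open square), IGF1 in orange, and a line at each group mean of 3 libraries. IGF1 libraries sit close together in each gene, and in most genes control replicate 2 lies on the way from the other controls to the IGF1 libraries or beyond them.

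Map1lc3a, which encodes LC3A, had the lowest level of the ATG8 genes in every library. It was at 9.73, 21.1 and 10.3 FPKM in control replicates 1, 2 and 3 and at 36.4, 32.2 and 34.7 FPKM in IGF1 replicates 1, 2 and 3. All 3 IGF1 libraries lay above all 3 controls, and control replicate 2 came 45.5% of the way from the mean of the other controls to the IGF1 mean. The means were 13.7 ± 6.42 FPKM (SD, n = 3) and 34.4 ± 2.13 FPKM (SD, n = 3), a 2.51-fold difference, and the log2 fold change was 1.35 (SE 0.29, adjusted p = 0.0405, limma). It was 1.68 without control replicate 2 (adjusted p = 2.0e-09), when 88.5% of all genes had an adjusted p under 0.05, 32.9% were called and 12.3% were called higher. Map1lc3a rested on 163 to 472 reads per library. The call was lost, with the same direction, when any library other than control replicate 2 was left out, at log2 fold changes of 1.16 to 1.39 and adjusted p from 0.147 to 0.164. It was also lost, at 0.45, once trends on transcript length and GC content were removed.

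The 5 genes whose log2(FPKM + 1) values, centred on their mean, were closest to those of Map1lc3a over the 6 libraries were Rp9, Sapcd1, Crygn, Nupr1l and Dap. Their distances were 0.114, 0.141, 0.155, 0.160 and 0.161, and their log2 fold changes lay between 1.25 and 1.43. Such a pattern was common, since 1511 genes lay within a distance of 1.

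Map1lc3b, which encodes LC3B, the paralog most used to follow autophagosomes, had the highest level of the ATG8 genes. It was at 225, 233 and 222 FPKM in the controls and at 209, 202 and 209 FPKM in the IGF1 libraries. The IGF1 libraries lay just below the controls, with a change of -8.81% in the mean, and control replicate 2 was the highest of the 6 libraries. The means were 226 ± 5.54 and 207 ± 4.13 FPKM (SD, n = 3 each), with a log2 fold change of -0.13 (SE 0.10, adjusted p = 0.306, limma). It was -0.11 without control replicate 2 (adjusted p = 0.0038). The direction turned to 0.12 once libraries were scaled to their 75th percentile and to 0.15 once trends on length and GC content were removed, so that no direction can be given for Map1lc3b across scalings.

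Gabarap and Gabarapl1 encode a pair of closely related GABARAP proteins and had nearly the same fold change. Gabarap was at 127, 177 and 116 FPKM in the controls and at 200.1, 199.8 and 199.4 FPKM in the IGF1 libraries. Gabarapl1 was at 80.1, 114 and 84.0 FPKM in the controls and at 133, 132 and 131 FPKM in the IGF1 libraries. Every IGF1 library lay above every control in both genes, and control replicate 2 came 71.4% of the way to the IGF1 mean for Gabarap and 64.6% for Gabarapl1. Means were 140 ± 32.6 and 199.8 ± 0.379 FPKM for Gabarap and 92.8 ± 18.8 and 132 ± 0.999 FPKM for Gabarapl1 (SD, n = 3 each). Neither passed the test, with log2 fold changes of 0.53 (SE 0.18, adjusted p = 0.0656, limma) for Gabarap and 0.52 (SE 0.16, adjusted p = 0.0566, limma) for Gabarapl1. They were 0.71 and 0.68 once control replicate 2 was left out, short of the fold threshold.

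Gabarapl2, the third GABARAP gene, did not separate the groups. It was at 61.3, 88.0 and 58.9 FPKM in the controls and at 74.3, 72.9 and 77.7 FPKM in the IGF1 libraries. Control replicate 2 was the highest library, above all IGF1 libraries, while the other controls were the lowest. The log2 fold change was 0.13 (SE 0.17, adjusted p = 0.526, limma) and, without control replicate 2, 0.32.

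Sqstm1, which encodes the ubiquitin-binding receptor p62, was in the main fit the receptor with the smallest standard error relative to its change. It was at 112, 99.6 and 110 FPKM in the controls and at 75.8, 75.03 and 77.4 FPKM in the IGF1 libraries. All IGF1 libraries lay below all controls, and control replicate 2 stayed nearer the other controls, 32.5% of the way to the IGF1 mean. The means were 107 ± 6.62 and 76.1 ± 1.19 FPKM (SD, n = 3 each), with a log2 fold change of -0.49 (SE 0.10, adjusted p = 0.0369, limma), short of the fold threshold. It was -0.54 without control replicate 2 and, with the 75th percentile scaling, -0.23 (adjusted p = 0.103).

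Nbr1 and Tax1bp1 encode receptors that bind ubiquitin and act beside p62. Nbr1 was at 18.4, 9.25 and 18.5 FPKM in the controls and at 7.19, 7.85 and 7.03 FPKM in the IGF1 libraries. Tax1bp1 was at 113, 50.9 and 116 FPKM in the controls and at 46.1, 44.8 and 46.1 FPKM in the IGF1 libraries. In both genes control replicate 2 lay only just above the IGF1 libraries, 82.9% of the way to their mean for Nbr1 and 92.4% for Tax1bp1. Means were 15.4 ± 5.31 and 7.36 ± 0.434 FPKM for Nbr1 and 93.1 ± 36.6 and 45.7 ± 0.741 FPKM for Tax1bp1 (SD, n = 3 each). The log2 fold changes of -0.91 (SE 0.27, adjusted p = 0.0555, limma) for Nbr1 and -0.92 (SE 0.32, adjusted p = 0.0715, limma) for Tax1bp1 did not pass. Both passed as lower without control replicate 2, at -1.22 (adjusted p = 2.4e-08) and -1.30 (adjusted p = 3.1e-10), when 20.6% of all genes were called lower.

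Optn and Calcoco1 were the receptors with the lowest levels, and in both the groups overlapped. Optn, whose protein optineurin takes part in the removal of mitochondria and bacteria, was at 2.67, 1.66 and 2.53 FPKM in the controls and at 2.02, 1.76 and 2.23 FPKM in the IGF1 libraries. Calcoco1, whose protein acts in the turnover of endoplasmic reticulum and Golgi, was at 8.73, 5.09 and 8.17 FPKM in the controls and at 5.57, 4.88 and 5.71 FPKM in the IGF1 libraries. Control replicate 2 lay below every IGF1 library for Optn and within their range for Calcoco1. Optn rested on as few as 56 reads, and its log2 fold change of -0.12 (SE 0.16, adjusted p = 0.532, limma) turned to 0.06 with the 75th percentile scaling. That of Calcoco1 was -0.36 (SE 0.21, adjusted p = 0.189, limma). Leaving out control replicate 2 gave -0.27 for Optn and -0.57 for Calcoco1, short of the fold threshold.

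**Figure D2:**
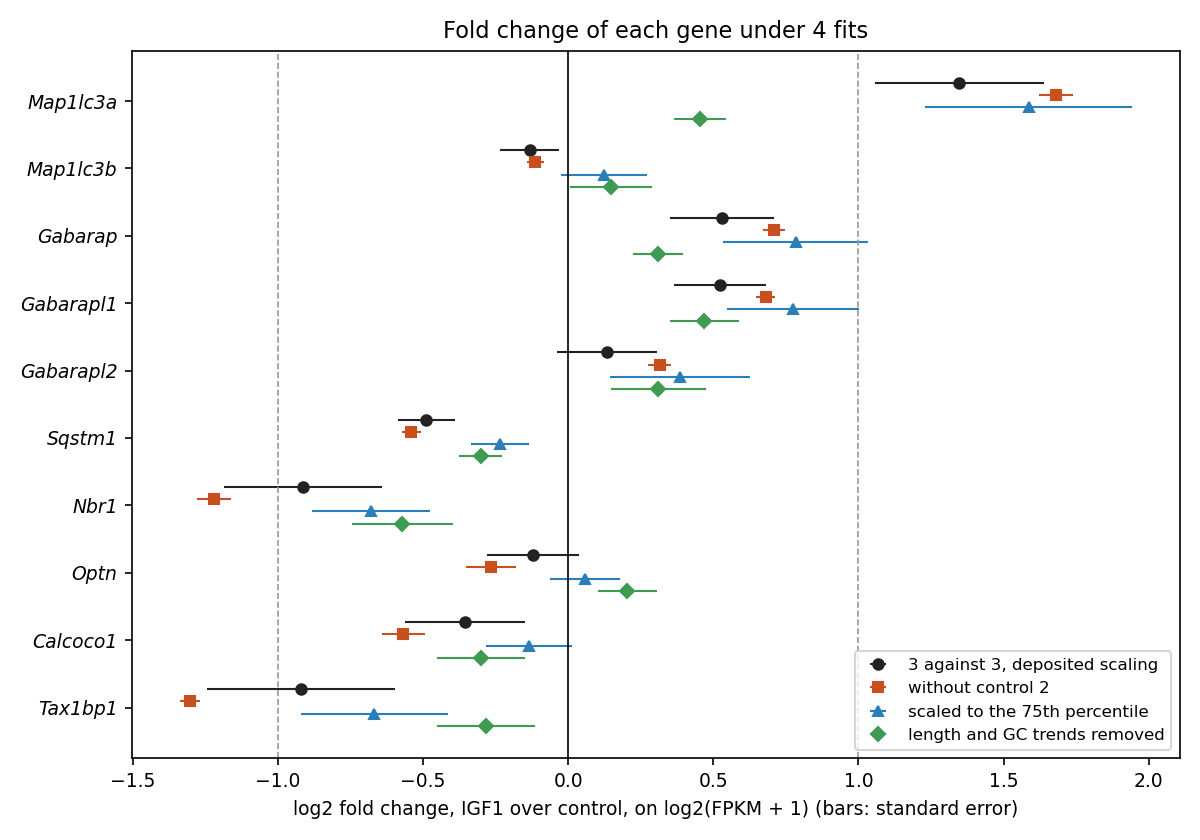
Log2 fold change of each gene, IGF1 over control, on log2(FPKM + 1), with its standard error under 4 fits, and dashed lines at the fold threshold. Map1lc3a falls from 1.35 to 0.45 once trends on length and GC content are removed, and Map1lc3b and Optn change side between fits.

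The scaling and the length of the transcripts moved with these differences. Over all genes tested the median was -0.179 on the log2 scale, and 0.04 with the 75th percentile scaling, so that relative to the other genes the receptors stood less low and the ATG8 genes higher than their fold changes alone. That scaling gave 301 genes called higher and 260 lower in place of 207 and 484, 5.37% of the genes in all, with Map1lc3a as the 1 of the 10 genes called. Across the tested genes, the log2 fold change had a rank correlation of -0.216 with transcript length and 0.384 with GC content. The rank correlation of a library's deviation with length was 0.236 and 0.232 in control replicates 1 and 3, -0.209 in control replicate 2 and -0.206 to -0.219 in the IGF1 libraries. With GC content it was -0.339 and -0.332, 0.0133, and 0.36 to 0.384.

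The longest transcripts of the 4 ATG8 genes other than Map1lc3b are short, at 1112 bases for Map1lc3a, 1351 for Gabarap, 1677 for Gabarapl2 and 1820 for Gabarapl1, and that of Map1lc3b is 4138 bases. The longest transcript need not be the one behind the deposited values, and the Map1lc3b transcript used above for its coding sequence has 2532 bases. When the genes tested were cut into 4 bins of length with about as many genes in each, the median log2 fold change was 0.281 in the shortest bin, up to 2113 bases, and -0.33, -0.433 and -0.167 in the next bins. The receptors Optn (2614 bases), Sqstm1 (2673) and Calcoco1 (2968) belonged to the second bin, Tax1bp1 (4249) to the third and Nbr1 (4789) to the fourth. Map1lc3a also has the highest GC content of the 10 genes, 63.1%, and Tax1bp1 the lowest, 39.6%.

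With both trends removed from each library, Map1lc3a stood at a log2 fold change of 0.45 (SE 0.088, adjusted p = 0.0377, limma), under the fold threshold, and none of the 10 genes was called, against 3.03% of all genes. Gabarapl1 was then at 0.47 (adjusted p = 0.0492) and Sqstm1 at -0.30 (adjusted p = 0.0480), and these 3 genes passed the adjusted p, as did 16% of all genes. Gabarap and Gabarapl2 were both at 0.31, Nbr1 at -0.57, Calcoco1 at -0.30 and Tax1bp1 at -0.28, while Map1lc3b at 0.15 and Optn at 0.20 had turned. The part of length and GC content in the differences was not tested beyond this.

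**Figure D3:**
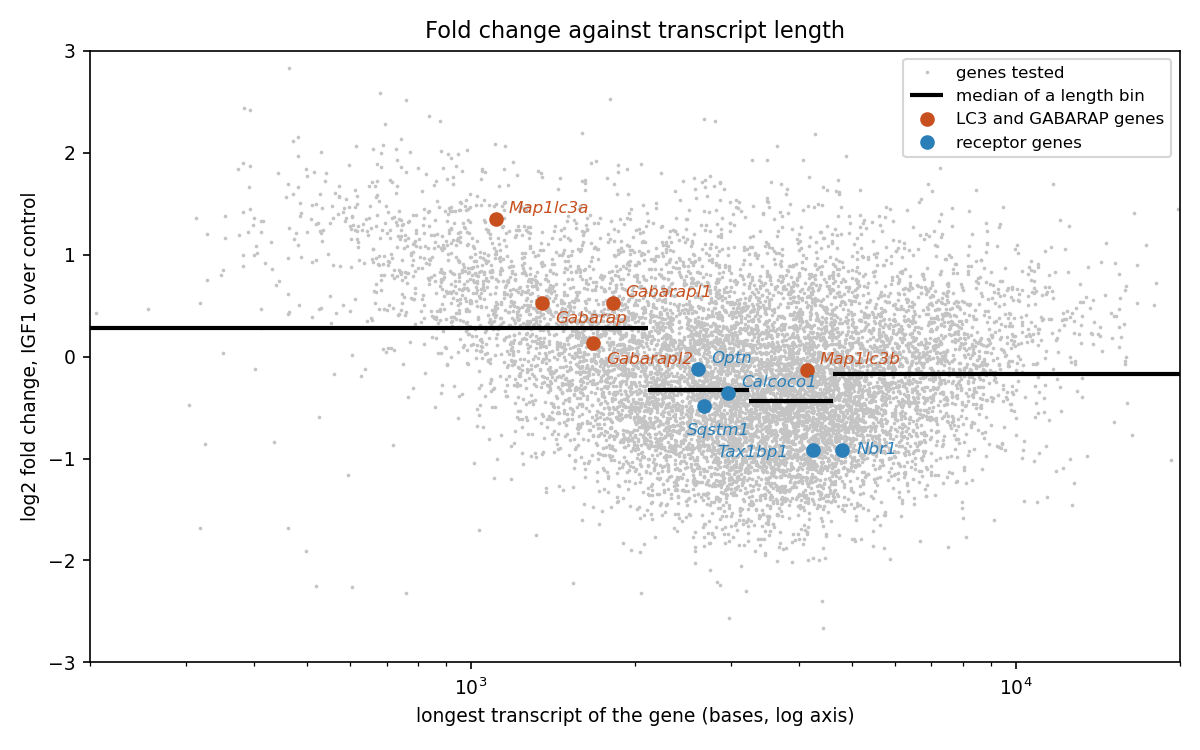
Log2 fold change, IGF1 over control, against the longest transcript of each tested gene (log axis, 200 to 20000 bases, 8 genes outside the axes), with black lines at the median of each of 4 bins of length. Map1lc3a at 1112 bases is the shortest of the 10 genes and has the highest fold change, and Nbr1 at 4789 bases is the longest.

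Ratios between genes within a library do not depend on how libraries were scaled, so the paralogs were compared in this way. Such ratios still carry trends on transcript length and GC content, and were not computed with these removed. With the trends removed, log2 fold changes were 0.45 for Map1lc3a, 0.47 for Gabarapl1, 0.31 for Gabarap and Gabarapl2 and 0.15 for Map1lc3b. Map1lc3a then rose no more than Gabarapl1, and its gaps to the others were smaller than the shifts below. Of the 10 pairs of ATG8 genes, 8 did not overlap between groups, against 56.6% of all pairs of tested genes. The log2 ratio of Map1lc3a to Map1lc3b was -4.53, -3.46 and -4.43 in the controls and -2.52, -2.65 and -2.59 in the IGF1 libraries. This was the widest shift, by 1.55, or 1.89 without control replicate 2. Relative to Gabarapl2 Map1lc3a was higher by 1.28, to Gabarapl1 by 0.89 and to Gabarap by 0.89 (1.46, 1.09 and 1.06 without control replicate 2), and every IGF1 library lay above every control in each of these ratios (exact p = 0.1, the smallest the design allows).

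The log2 ratio of Map1lc3b to Gabarap was 0.82, 0.39 and 0.93 in the controls and 0.06, 0.01 and 0.07 in the IGF1 libraries, so that the 2 transcripts reached nearly the same level with IGF1. This was a shift of -0.67. The ratio of Map1lc3b to Gabarapl1 shifted by -0.66 and that of Map1lc3b to Gabarapl2 by -0.27, with the groups of the latter overlapping. The 3 shifts were -0.83, -0.80 and -0.43 without control replicate 2. The ratio of Gabarap to Gabarapl1 overlapped between the groups, at 0.67, 0.63 and 0.47 in the controls and 0.59, 0.59 and 0.61 in the IGF1 libraries, with a shift of 0.01 (exact permutation p = 1), or 0.03 without control replicate 2.

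The ratios of Gabarap and of Gabarapl1 to Gabarapl2 were those in which control replicate 2 stood with the other controls. Gabarap to Gabarapl2 was at 1.054, 1.012 and 0.984 in the controls and at 1.429, 1.455 and 1.359 in the IGF1 libraries, a shift of 0.40 and the same without control replicate 2. Gabarapl1 to Gabarapl2 was at 0.39, 0.38 and 0.51 in the controls and at 0.84, 0.86 and 0.75 in the IGF1 libraries, a shift of 0.39, or 0.37 without control replicate 2. Of these 3 transcripts Gabarapl2 has the lowest GC content, 45.3% against 50.8% for Gabarap and 52.7% for Gabarapl1. With length and GC trends removed, Gabarap and Gabarapl2 both had a log2 fold change of 0.31, so that no shift between them was left, and Gabarapl1 was at 0.47.

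**Figure D4:**
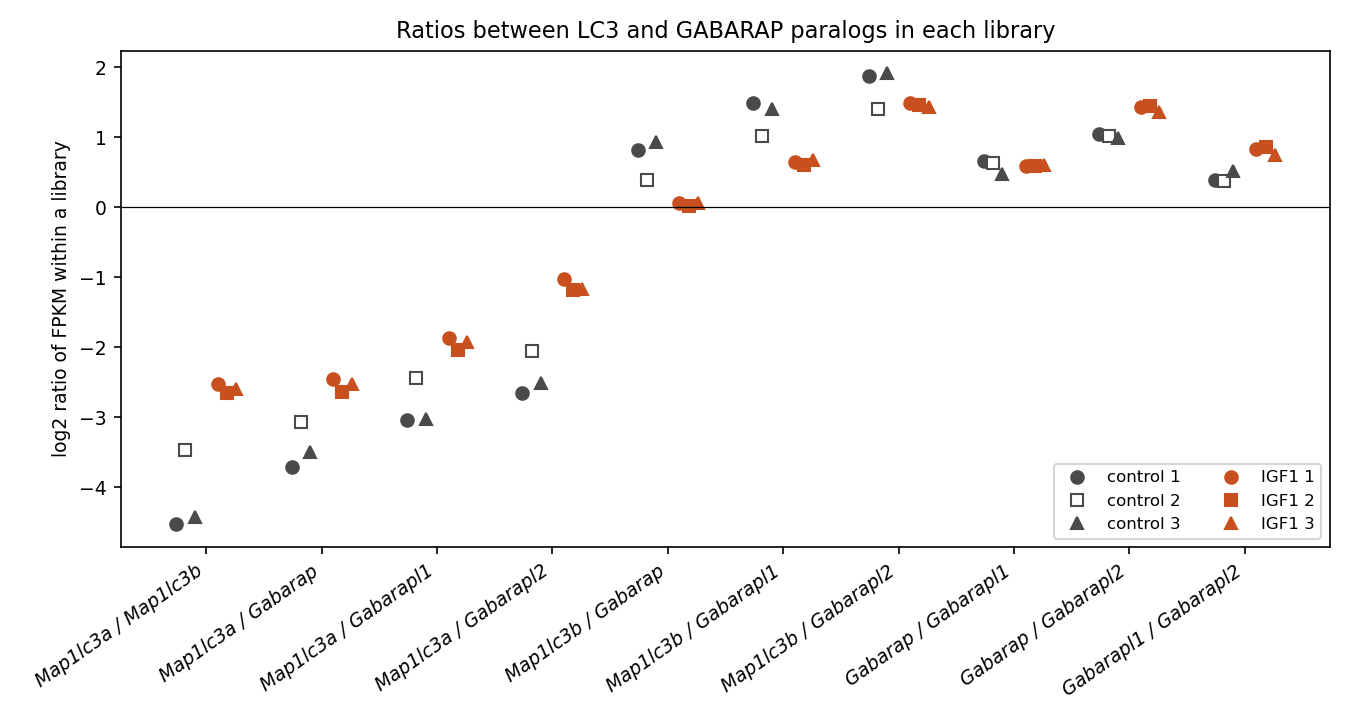
Log2 ratio of FPKM between each pair of ATG8 genes within each library, with controls in grey (control replicate 2 as an open square) and IGF1 in orange. Ratios with Map1lc3a are higher with IGF1, that of Gabarap to Gabarapl1 stays at about 0.6, and in the last 2 pairs control replicate 2 sits with the other controls.

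Taken as FPKM, and so per length, the values of the ATG8 genes can be summed. The sum was 503, 634 and 492 FPKM in the controls and, with IGF1, 653, 639 and 652 FPKM, a ratio of means of 1.19, or 1.30 without control replicate 2. Map1lc3b made up 44.7%, 36.7% and 45.2% of it in the controls and 32.0%, 31.6% and 32.1% in the IGF1 libraries. Map1lc3a made up 1.94%, 3.34% and 2.10% in the controls and 5.58%, 5.04% and 5.32% in the IGF1 libraries and thus was in all of them the smallest part. Gabarap held 23.7% to 28.0% of the sum in the controls and 30.6% to 31.3% in the IGF1 libraries, and Gabarapl1 15.9% to 18.05% and 20.1% to 20.7%. The order Map1lc3b, Gabarap, Gabarapl1, Gabarapl2, Map1lc3a held in all 6 libraries, with Map1lc3b and Gabarap within 0.07 of each other on the log2 scale in the IGF1 libraries.

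The receptors summed to 254, 167 and 255 FPKM in the controls and to 137, 134 and 138 FPKM in the IGF1 libraries, a ratio of means of 0.606, or 0.536 without control replicate 2. Sqstm1 and Tax1bp1 made up most of it, and their order differed between libraries. Tax1bp1 held 44.3%, 30.6% and 45.4% of the sum in the controls and 33.7%, 33.4% and 33.3% in the IGF1 libraries, against 44.0%, 59.8% and 43.2% and then 55.4%, 55.8% and 55.9% for Sqstm1. In control replicate 2 the share of Tax1bp1 was thus lower than in any IGF1 library. Nbr1, Calcoco1 and Optn followed in this order in all 6 libraries.

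Among the 10 receptor pairs, 5 did not overlap between groups, beside the 56.6% of all pairs. The log2 ratio of Nbr1 to Optn shifted by -0.83 and that of Nbr1 to Calcoco1 by -0.59, while that of Nbr1 to Tax1bp1 shifted by -0.06 (exact permutation p = 0.5). The ratios of Optn and of Calcoco1 to Tax1bp1 shifted by 0.76 and 0.52. Without control replicate 2 these 5 shifts were -0.94, -0.68, -0.01, 0.94 and 0.67. With length and GC trends removed, Calcoco1 and Tax1bp1 had nearly the same log2 fold change, at -0.30 and -0.28. Nbr1, at -0.57, was then lower than Tax1bp1, and Optn was at 0.20. The ratio of Optn to Calcoco1 shifted by 0.24, or 0.27 without control replicate 2, at -1.71, -1.61 and -1.69 in the controls and -1.46, -1.47 and -1.36 in the IGF1 libraries, although both genes overlapped on their own level. In the ratio of an ATG8 gene to a receptor, 16 of 25 pairs did not overlap, each of them higher with IGF1, again beside 56.6% of all pairs of tested genes in either direction. The ATG8 sum was 1.98, 3.80 and 1.93 times the receptor sum in the controls and 4.77, 4.76 and 4.71 times in the IGF1 libraries.

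**Figure D5:**
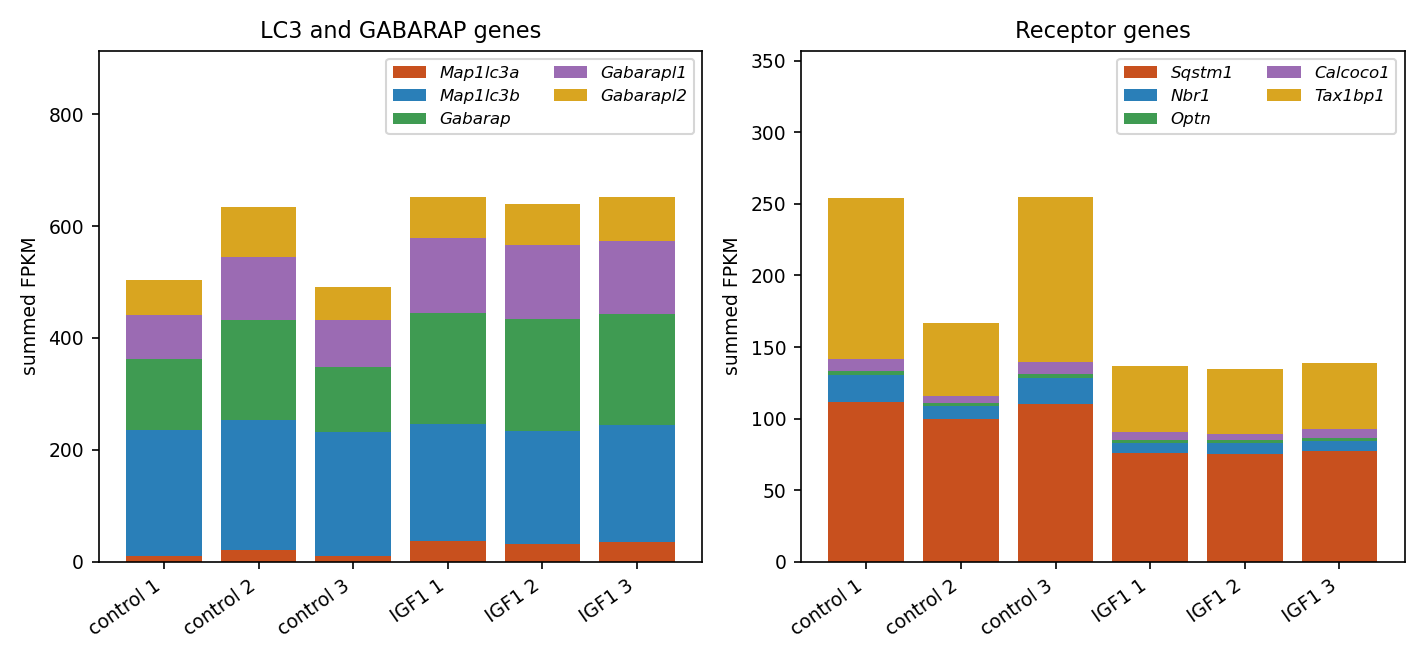
Summed FPKM of the ATG8 genes (left) and of the receptor genes (right) in each library, stacked by gene, with the axes from 0. The ATG8 sum runs from 492 to 653 FPKM and the receptor sum from 134 to 255 FPKM, with control replicate 2 near the IGF1 libraries in both.

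Other genes of the pathway were taken from 8 lists, of which 77 of 82 genes could be tested. Of these, 1 was called higher and 3 lower, beside 1.98% and 4.63% of all genes, and their median log2 fold change was -0.367, beside -0.179 for all genes tested. Without control replicate 2, 3 of the 77 were called higher and 18 lower, beside 12.3% and 20.6% of all genes. Of all 10449 genes tested, voom called 380 higher and 679 lower. At least 20.4% of all genes had an unadjusted p under 0.05, since that share had an adjusted p under 0.05. The counts of each list below are to be read beside these. The ATG8 conjugation machinery and the ATG4 proteases, which act directly on the 5 ATG8 proteins, had 0 of 10 tested genes called by limma, 5 at an unadjusted p under 0.05 and 1 called lower by voom, with a median of -0.402. When control replicate 2 was left out, 2 of the 10 were called lower. Atg3, which encodes the enzyme that passes ATG8 proteins to lipid, was at 54.8, 47.2 and 53.4 FPKM in the controls and at 30.5, 31.0 and 33.4 FPKM with IGF1. Its log2 fold change was -0.69 (adjusted p = 0.0287, limma), short of the fold threshold, and was -0.76 without control replicate 2 and -0.20 with length and GC trends removed. Atg16l2 stood at 0.49 (adjusted p = 0.0417), 0.46 and 0.56 in these fits.

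Upstream of conjugation, 0 of 5 genes of the ULK1 initiation complex were called by limma or by voom (1 at an unadjusted p under 0.05, median -0.346), with Ulk2 at -0.73 (adjusted p = 0.0548) and Rb1cc1 at -0.35 (adjusted p = 0.12). In the class III PI3K complex 1 of 8 genes was called, Becn1, which encodes its Beclin 1 scaffold and fell by 1.36 on the log2 scale (adjusted p = 0.0455), from 64.4, 27.9 and 65.2 FPKM to 18.6, 17.9 and 18.9 FPKM. Of ATG9, ATG2 and WIPI, which bring lipid to the growing membrane, 0 of 9 were called by limma (6 at an unadjusted p under 0.05, 1 called lower by voom, median -0.151), with Atg2a at 0.65 (adjusted p = 0.0412) and Vmp1 at -0.63 (adjusted p = 0.0439). With length and GC trends removed Ulk2 was at -0.48, Rb1cc1 at -0.06, Atg2a at 0.29 and Vmp1 at 0.0031, so that the difference in Vmp1 was not seen in that fit. Leaving out control replicate 2, 0 genes of the ULK1 list, 3 of the PI3K list and 1 of the last list were called lower.

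Of other receptors with an LC3-interacting region, 1 of 17 was called, Bnip3, a receptor for mitochondria, which fell by 1.30 on the log2 scale (adjusted p = 0.0425), from 42.1, 20.8 and 45.4 FPKM to 13.6, 13.7 and 12.6 FPKM. The genes of fusion between autophagosome and lysosome had 1 called higher and 1 lower of 14. Tecpr1, which tethers autophagosomes, rose by 1.02 on the log2 scale (adjusted p = 0.0354), and Rab7, the small GTPase of late endosomes, fell by 1.04 (adjusted p = 0.0412). Becn1, Bnip3, Rab7 and Tecpr1 were also called in the same direction without control replicate 2, and with length and GC trends removed their log2 fold changes were -0.85, -0.98, -0.78 and 0.87, under the fold threshold. All 4 calls were lost with the replicate block and when any library other than control replicate 2 was left out, where 0 of all genes tested were called. In all, 4 of the other receptors were called lower, and 2 of the fusion genes higher and 4 lower, without control replicate 2.

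Of the kinases and partners of the receptors, 0 of 6 were called by limma or voom (2 at an unadjusted p under 0.05, median -0.631). Nfe2l2, which encodes NRF2, an activator of Sqstm1 transcription, was at 51.0, 19.4 and 50.2 FPKM in the controls and at 13.6, 14.3 and 14.6 FPKM with IGF1, with a log2 fold change of -1.32 (adjusted p = 0.0525, limma), and Tbkbp1 stood at 0.58 (adjusted p = 0.076). Of transcription factors of autophagy genes, 0 of 8 were called by limma or voom (6 at an unadjusted p under 0.05, median 0.231), with E2f1 at -0.35 (adjusted p = 0.0527) and Atf4 at 0.81 (adjusted p = 0.0536). Of the former 3, Nfe2l2 among them, and of the latter 1 were called lower without control replicate 2, and Atf4 was then called higher.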

How the data were processed

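RNA-seq of sorted HSCs was analysed, 3 control and 3 IGF1 libraries grouped by their titles. The authors trimmed reads with fastp. The submitters' processing notes name HISAT2, StringTie and the GRCm38 (mm10) build, and the study's methods name RSEM and DESeq2. Each of the files the authors deposited holds 1 FPKM value per gene symbol. The study's methods do not name the unit of these files, and the values were taken as FPKM. Whole reads, within 0.01 of a read, were recovered for 15640 of 15640 genes above 0, against 0.05% of 4000 jittered rows. The recovered reads summed to 15879605, 11429198 and 15973834 for control replicates 1 to 3 and to 12262662, 11206800 and 12756225 for IGF1 replicates 1 to 3. Precision at low levels is limited by these counts.

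The test, for genes reaching 1 FPKM in 3 or more libraries, was limma 3.58.1 (lmFit, and eBayes with a trend) on log2(FPKM + 1) in R 4.3.3, with Benjamini-Hochberg adjustment over all genes tested. Fold changes are on this scale, which understates those of low genes. Exact permutation tests, 2-sided, used scipy 1.17.1. Length and GC content came from the longest GENCODE transcript of each symbol, for 99.1% of the genes tested, and their trends were removed from each library by splines with 5 degrees of freedom each. The fits were tested on simulated data. Alternatives were other pseudocounts and filters, 75th percentile scaling, quantile normalization, a replicate block, the removal of trends, limma's voom on recovered reads and leaving out each library. No p-value is given for sums over the genes.

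Named were all 10 genes, for each pathway list the called genes, 3 at most, lowest in adjusted p, or up to 2 genes where none was called, the 5 genes closest in pattern to a called gene, and, of the marker lists, Procr, Mecom, Hlf, the genes of the gate and the gene with the highest mean of each other list. Ngp, Camp, S100a8, S100a9, Elane and Prtn3 are named beyond this rule, picked with their values in view. The genes and lists were chosen with earlier results of these data known.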

Additional observations from a re-analysis of the deposited data

How the results depend on the processing

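The log2 fold changes of the 10 genes kept their sign under the alternatives tried, except those of Map1lc3b and Optn. With the 75th percentile scaling they were 0.12 and 0.058, with length and GC trends removed, with or without the replicate block, 0.15 and 0.20, and with the trends removed and control replicate 2 left out, an alternative chosen after seeing the data, 0.29 and 0.17. Of the ratios, Gabarap to Gabarapl1 ranged from -0.053 to 0.044 and Sqstm1 to Calcoco1 from -0.198 to 0.107 as libraries were left out, with a changed sign without control replicate 3 and without control replicate 2, and Nbr1 to Tax1bp1 was 0.0080 with a pseudocount of 1. The sums over the ATG8 and receptor genes kept their direction under the 75th percentile scaling and when any library was left out. They were not computed with length and GC trends removed.

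Of the 10 genes, 1 was called with pseudocounts of 0.1 and 5, without a filter, with a minimum of 5 FPKM (Optn was then not tested), with either other scaling and with voom. With the replicate block, with trends removed, with both, and with trends removed without control replicate 2, 0 were called by limma, and 0 to 3 when 1 library was left out. At an unadjusted p under 0.05 with the fold, the block left 1. Genes called higher and lower numbered 66 and 157 with a pseudocount of 5, 109 and 265 without a filter, 380 and 679 with voom, and 1184 and 958 with trends removed without control replicate 2. Genes called lower numbered 260 with the 75th percentile scaling, 319 with quantile normalization and 155 with trends removed. Leaving out 1 library gave 0 to 1281 called higher and 0 to 2157 lower, the highest without control replicate 2 (3438 in all) and 0 without any other library. No pairing by replicate number was seen. Same-numbered libraries deviated from their group means with correlations of -0.0572, -0.0503 and 0.00567, and 0 of the 3 controls correlated best with its own number. Control replicate 2 sets most of the deviations among the controls, so this check could hardly show a pairing. The replicate block gave 0 genes called in either direction, with 680 higher and 1100 lower at an unadjusted p under 0.05 with the fold, also with trends removed (551 and 359). Depth limits mainly Optn, whose lowest library held 56 reads, a counting error of 13.4%.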
